A study of Mus musculus with 6 samples.

Results

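The *Il10* cytokine cluster of mouse chromosome 1 was taken as the genes *Il10*, *Il19*, *Il20* and *Il24* with their neighbours *Fcmr* and *Mapkapk2*. Its members were the accessible regions that overlap the body of any of these 6 genes, in the GENCODE vM21 annotation of GRCm38, or lie within 20 kb of it. They numbered 40 of the 100771 regions of the *CREBfl/fl* list and 33 of the 94499 regions of the *Foxp3creCREBfl/fl* list. Joined where they overlap by at least 1 bp, these were 39 of 104845 regions. The windows reached from 130845669 to 131117826, covered 232 kb and left out 39.7 kb between *Il19* and *Il10*.

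The regions came from ATAC-seq of splenic Tregs from C57BL/6 mice that were 6 to 12 weeks old. In ATAC-seq a transposase cuts open DNA, and stretches covered by many fragments are called accessible regions. Mice of both groups carried the loxP-flanked *CREB* allele, and the *Foxp3creCREBfl/fl* mice also carried a Cre recombinase driven by *Foxp3*, so that *CREB* is removed in Foxp3+ cells. The controls had no Cre, so the loss of CREB and the presence of Cre cannot be told apart. The labels name 3 libraries per group, and the files analysed give 1 peak list for each group, made from all of its libraries or an unstated part of them. No spread between mice could be had, no p-value is given, and all intervals cover counting error at 95% only. The lists hold no level of CREB, so its loss was not checked here.

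IL-10 is an anti-inflammatory cytokine with which Tregs restrain other immune cells, and it signals through a receptor that activates STAT3. IL-19, IL-20 and IL-24 belong to the same family but act mainly on epithelial cells and are made mainly by myeloid and epithelial cells. Fcmr is the Fc receptor for IgM, and Mapkapk2 (MK2) is a kinase downstream of p38 that stabilises the mRNAs of cytokines. CREB binds the palindromic cAMP response element (CRE) TGACGTCA and its half-site TGACG, and AP-1, the Fos, Jun and Batf family, binds TGAGTCA or its reverse complement TGACTCA.

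The sequences at 8 of the regions show what the results turn on, as the forward strand of GRCm38. Capitals mark each CRE, CRE half-site (TGACG or CGTCA) and AP-1 word. The first lies 16.3 kb upstream of the *Il10* start (chr1:131003511-131003661) and is the only region of the cluster with a CRE. The second is the summit of the strongest region nearest *Il10* (chr1:131010620-131010770). The third lies 18.4 kb downstream of the *Il10* start (chr1:131038182-131038332), between *Il10* and *Mapkapk2*. The fourth is the only *Foxp3creCREBfl/fl*-only region (chr1:131010265-131010373). The fifth and the sixth are summits in *Mapkapk2* introns (chr1:131064335-131064485 and chr1:131080823-131080973). The seventh is the *CREBfl/fl*-only region with the highest pileup (chr1:131095750-131095900), also in an intron of *Mapkapk2*. The eighth is the only region that lies nearest to *Il19* (chr1:130926655-130926738).
Il10 upstream, CRE: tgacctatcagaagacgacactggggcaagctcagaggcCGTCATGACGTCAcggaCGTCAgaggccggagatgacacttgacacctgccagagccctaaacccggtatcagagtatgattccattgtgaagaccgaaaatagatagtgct
Il10 upstream, strongest: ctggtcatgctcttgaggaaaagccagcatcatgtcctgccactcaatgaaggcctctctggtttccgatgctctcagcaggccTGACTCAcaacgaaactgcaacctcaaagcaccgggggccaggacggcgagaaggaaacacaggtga
Il10 downstream: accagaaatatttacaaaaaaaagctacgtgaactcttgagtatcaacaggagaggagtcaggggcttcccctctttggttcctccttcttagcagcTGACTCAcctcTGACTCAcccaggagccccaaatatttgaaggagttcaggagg
Il10 upstream, Foxp3creCREBfl/fl-only: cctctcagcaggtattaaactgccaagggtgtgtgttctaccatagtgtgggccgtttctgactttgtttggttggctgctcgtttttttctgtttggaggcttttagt
Mapkapk2 intron, lowest ratio: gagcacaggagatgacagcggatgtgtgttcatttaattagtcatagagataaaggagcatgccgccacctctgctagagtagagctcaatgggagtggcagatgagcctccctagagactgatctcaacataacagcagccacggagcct
Mapkapk2 intron, strongest: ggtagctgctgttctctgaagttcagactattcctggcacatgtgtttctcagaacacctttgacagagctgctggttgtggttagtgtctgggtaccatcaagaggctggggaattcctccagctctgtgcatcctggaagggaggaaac
Mapkapk2 intron, CREBfl/fl-only: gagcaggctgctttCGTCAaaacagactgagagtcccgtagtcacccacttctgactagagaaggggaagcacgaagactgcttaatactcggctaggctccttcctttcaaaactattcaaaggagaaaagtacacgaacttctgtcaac
Il19 downstream, CREBfl/fl-only: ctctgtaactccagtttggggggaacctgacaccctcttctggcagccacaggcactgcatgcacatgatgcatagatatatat

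The cluster was open at its ends and closed in its middle in both groups. Of the 39 joined regions 8 lay nearest to *Fcmr*, 12 to *Il10*, 18 to *Mapkapk2* and 1 to *Il19*, and none lay nearest to *Il24* or *Il20*. The windows held 17.2 regions per 100 kb in *CREBfl/fl* and 14.2 in *Foxp3creCREBfl/fl*, against 3.83 and 3.59 over all chromosomes used. Heights are given as the pileup, the whole number of fragments over the summit, and as its multiple of the genome background of the list. That background was 8.44 fragments in *CREBfl/fl* and 5.09 in *Foxp3creCREBfl/fl*, so that the same accessibility gives fewer fragments in the second list.

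**Figure D1:**
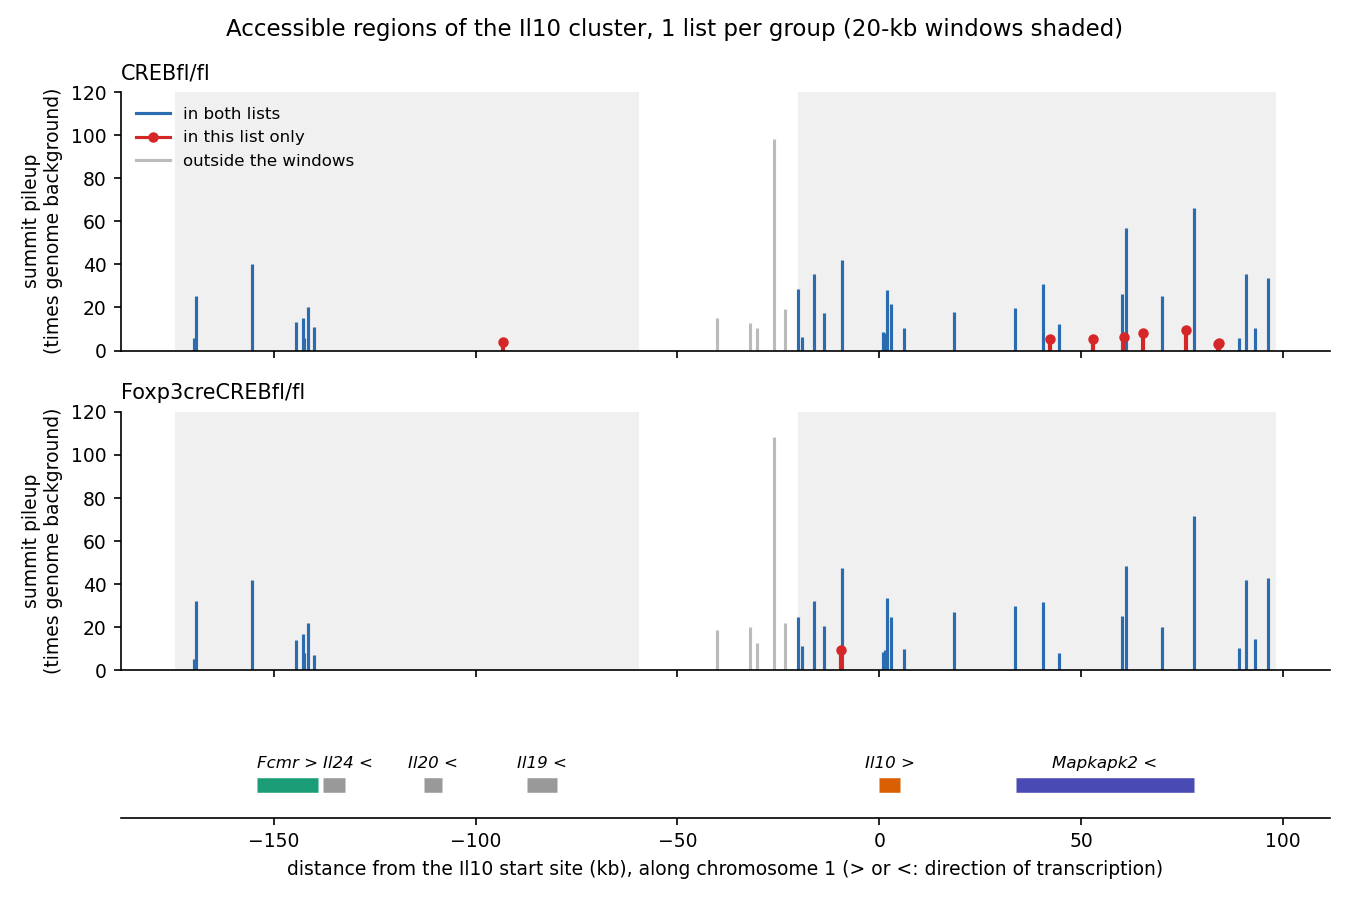
Height of each accessible region of the *Il10* cluster as multiples of the genome background (vertical axes), with 1 panel per list, against the distance from the *Il10* start site in kb (horizontal axis), with the 6 gene bodies underneath and the windows shaded. The regions that were in 1 list only, in red, stand at no more than 9.36 times background, while the region over the *Mapkapk2* start stands at 66.1 and 71.5 times background.

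The genes of the epithelial cytokines had no accessible start site. *Il24* (130882074 to 130887454), *Il20* (130906985 to 130911451) and *Il19* (130932656 to 130940115), all on the reverse strand, had no region on the gene body and none within 1 kb of the start in either list. In *Foxp3creCREBfl/fl* a stretch of 99.3 kb that holds all 3 genes was without a region. It was longer than 96.8% of the stretches between regions of that list, whose median was 4.96 kb. In *CREBfl/fl* the same stretch held 1 region, 13.4 kb downstream of the *Il19* start, which left 46.5 kb and 52.7 kb without a region on either side. This region had a pileup of 34, or 4.03 times background, and had no counterpart in *Foxp3creCREBfl/fl*. Of all *CREBfl/fl* regions with a pileup within 20% of it, 43.3% had no counterpart.

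*Il10* (ENSMUSG00000016529.5, forward strand, 131019845 to 131024974) had 12 regions within 20 kb in each list, more than 85.2% of the protein-coding genes in *CREBfl/fl* and 86.5% in *Foxp3creCREBfl/fl*. No region covered its start site. The region nearest to the start began 773 bp inside the gene, in an intron, with pileups of 73 in *CREBfl/fl* and 43 in *Foxp3creCREBfl/fl*, or 8.64 and 8.45 times background. Higher regions stood further inside and upstream. An intronic region 1.84 kb from the start had pileups of 236 and 172. The strongest of the gene, 9.15 kb upstream at 131010401 to 131011044, had 354 and 242, or 41.9 and 47.6 times background.

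*Mapkapk2* (ENSMUSG00000016528.10, reverse strand, 131053700 to 131097826) had the strongest region of the cluster, over its start site (131096345 to 131098098), with pileups of 558 and 364. *Fcmr* (ENSMUSG00000042474.6, forward strand, 130865669 to 130880791) had a region that ended 910 bp before its start, with pileups of 341 and 214, and 5 regions on its body. One of these, in both lists, covers a coding exon and the start of a shorter transcript of the gene that is annotated as not coding for a protein, with pileups of 169 and 113. *Mapkapk2* had 20 regions within 20 kb in *CREBfl/fl* and 13 in *Foxp3creCREBfl/fl*. *Fcmr* had 8 and 9.

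Regions without a counterpart lay mostly at *Mapkapk2*. Of the 40 *CREBfl/fl* regions 8 (20%, Wilson interval 10.5% to 34.8%) had no counterpart in *Foxp3creCREBfl/fl*, against 16.4% of all *CREBfl/fl* regions. Of the 33 *Foxp3creCREBfl/fl* regions 1 (3.03%, 0.537% to 15.3%) had no counterpart, against 6.61% of all regions of that list. Both shares of the cluster have intervals that include the background. Of the 8 *CREBfl/fl*-only regions 7 lay nearest to *Mapkapk2*, where they made up 36.8% (19.1% to 59.0%) of 19 regions. None of the 12 *CREBfl/fl* regions nearest to *Il10* (0% to 24.2%) and none of the 8 nearest to *Fcmr* (0% to 32.4%) lacked a counterpart. The intervals of *Il10* and *Mapkapk2* overlap, and the difference between the 2 genes was not tested.

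**Figure D2:**
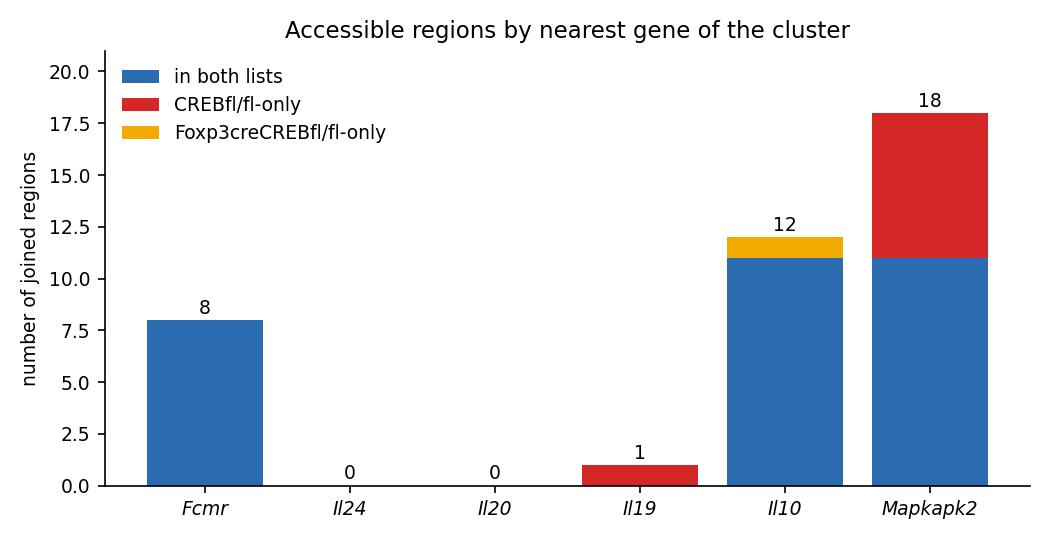
Number of joined accessible regions (vertical axis) that lay nearest to each gene of the cluster (horizontal axis), by the list they were in. *Mapkapk2* had 11 shared and 7 *CREBfl/fl*-only regions, *Il10* had 11 shared regions and 1 *Foxp3creCREBfl/fl*-only region, and *Il24* and *Il20* had none.

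The 7 *CREBfl/fl*-only regions of *Mapkapk2* were weak by pileup. Their pileups ran from 25 to 79, which is 2.96 to 9.36 times background, while the shared regions nearest to the gene had a median of 223. Weak regions of this list often lack a counterpart, and among *CREBfl/fl* regions with a pileup within 20% of theirs the share without one ran from 10.5% to 63.5%. As for all such shares here, the match was on pileup only. The background around these regions ran from 8.44 to 40.1 fragments, the latter at 131095750, where the share was 10.5%. Regions of like pileup can thus stand further above their own background. The highest, 131095750 to 131095900, lies in an intron 2.02 kb from the start site and had a pileup of 79. Scaled by the genome backgrounds and by the median ratio of all shared regions, it corresponds to 52.8 fragments in the second list. The background there, 22.7, was estimated from its *CREBfl/fl* background and from shared regions within 10 kb. Such a height would give a -log10 p of 7.38. These values were not measured, and they take no account of the choice of the regions for being called in *CREBfl/fl*. The lowest -log10 p of any region in the *Foxp3creCREBfl/fl* list was 3.22. The next, 131085189 to 131085281, had a pileup of 67, and 10.3 corresponds to it on the same scale. The region at 131072592 to 131072800 lies 66 bp from the start of a shorter coding transcript of *Mapkapk2* and had a pileup of 45. Of the 8 *CREBfl/fl*-only regions of the cluster it is the 1 with a -log10 q of at least 10, at 15.0. In the second list a -log10 p of 14.1 corresponds to it, the highest of the 7 regions. The lowest, 4.05 at 131103674, also lay above 3.22. The region at 131095750, with the highest pileup, had a -log10 q of 5.74. The intronic regions at 131061981 to 131062073 and 131080323 to 131080452 had pileups of 45 and 52. The pair of regions upstream of the gene, at 131103674 to 131103781 and 131103903 to 131103987, had pileups of 25 and 28 and were the weakest of the cluster.

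The *Foxp3creCREBfl/fl*-only region lay 9.54 kb upstream of *Il10*, 76 bp from the strongest *Il10* region as called in that list. From the same region as called in *CREBfl/fl* it lay only 28 bp, so its lack of a counterpart rests on this gap. It had a pileup of 47, or 9.24 times background. Of *Foxp3creCREBfl/fl* regions with a pileup within 20% of it 3.90% had no counterpart. Estimated in the same way, a pileup of 70.3 over a background of 17.8 corresponds to it in *CREBfl/fl*, which would give a -log10 p of 20.8. It holds no CRE, half-site or AP-1 word.

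The 30 shared regions were then compared by height. The ratio used is the log2 of the *Foxp3creCREBfl/fl* pileup over the *CREBfl/fl* pileup, each over its own genome background, relative to the median of all 82004 shared regions, which lay at 0.15. Over all shared regions this ratio had an SD of 0.30. In the cluster its median was 0.00, and it ran from -0.78 to 0.72, with 14 regions above 0 and 16 below. No region of the cluster differed by 2-fold and 5 counting SDs, a rule that 0.117% of all shared regions passed as lower and 0.0829% as higher. The interval lay above 0 in 4 regions of the cluster, against 5.47% of all shared regions, and below 0 in 6, against 7.88%. The cells were measured in bulk, so a change in each cell and a change in the mix of Tregs cannot be told apart.

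**Figure D3:**
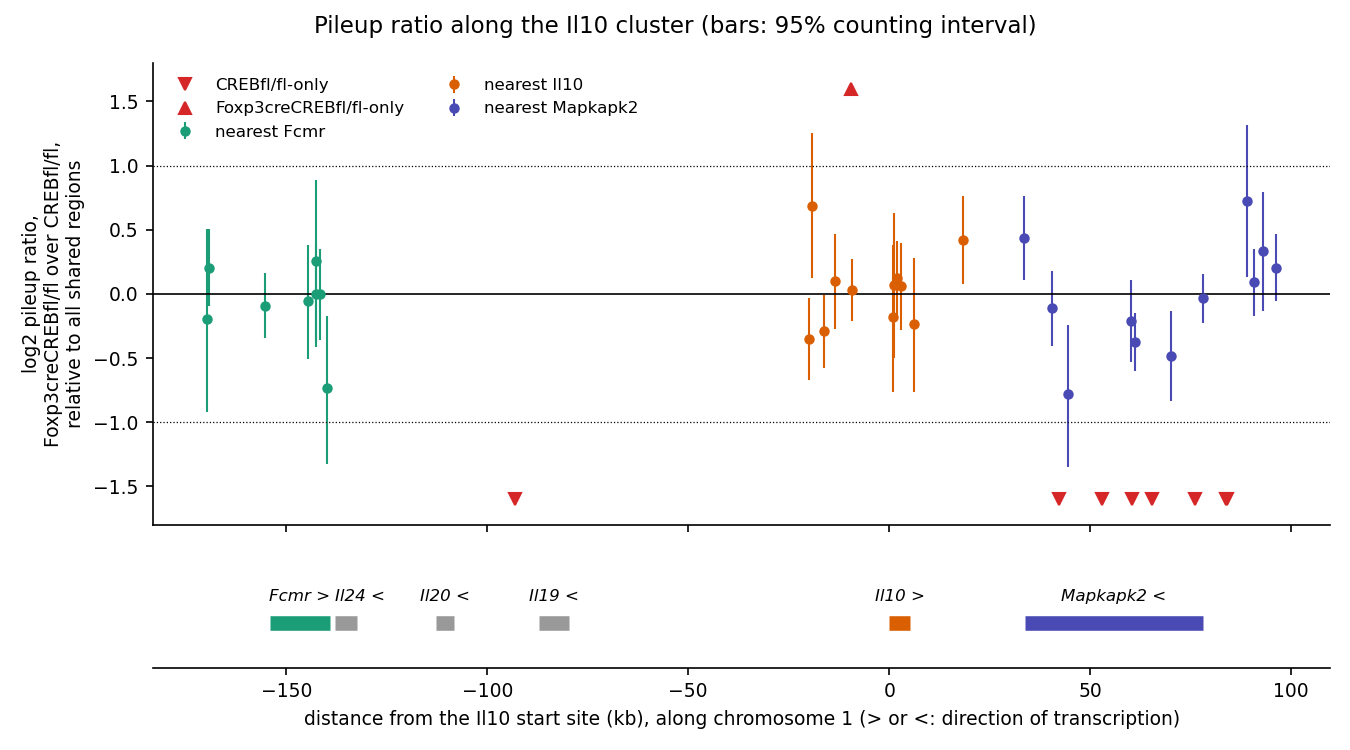
Relative log2 pileup ratio of the shared regions with its 95% counting interval (vertical axis) against the distance from the *Il10* start site in kb (horizontal axis), with the regions of 1 list only as triangles and the gene bodies underneath. The regions nearest to *Il10* lie on both sides of 0, and the 5 shared regions on the *Mapkapk2* body lie below it, 2 of them with intervals that include 0. Dotted lines mark 2-fold.

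Around *Il10* the ratios went both ways, and relative to all shared regions their summed pileups did not differ beyond counting error. The 11 shared regions had a median of 0.06, from -0.35 to 0.69, and the ratio of their summed pileups was 0.00 (-0.10 to 0.11). Uncentred, their median was 0.21. The region at 131000517 to 131000731, 19.2 kb upstream, had 53 fragments in *CREBfl/fl* and 57 in *Foxp3creCREBfl/fl*, which is a ratio of 0.69 (0.12 to 1.25). Its summits in the lists, 131000531 and 131000680, lie apart by more than 100 bp. On the other side, the region at 131038052 to 131039159, 18.4 kb downstream, had 153 and 137, for a ratio of 0.42 (0.08 to 0.76). Both stood higher in *Foxp3creCREBfl/fl* against the background of the lists.

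A pair of upstream regions stood lower. The region at 130999662 to 130999919 had 240 fragments and 126, at a ratio of -0.35 (-0.67 to -0.03). That with the CRE (131003110 to 131003750) had 300 and 164, at -0.29 (-0.57 to -0.01). Uncentred, both intervals include 0. The strongest *Il10* region had a ratio of 0.03 (-0.21 to 0.27), and the 5 regions on the *Il10* body or just past its end, including the one nearest to the start (-0.18, -0.76 to 0.38), had intervals that include 0.

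Of the 5 shared regions in the introns of *Mapkapk2* 3 stood lower in *Foxp3creCREBfl/fl*, and the other two and the region at its start did not differ beyond counting error. The body was singled out after its values had been seen. The 5 intronic regions had ratios from -0.78 to -0.11 with a median of -0.37, and 4 of them lay below 0 when uncentred. At 131064325 to 131064565 the pileups were 103 and 40, with the lowest ratio of the cluster, -0.78 (-1.35 to -0.24). The strongest intronic region, 131080775 to 131081160, had 479 and 247, for a ratio of -0.37 (-0.60 to -0.15). Another, at 131089586 to 131090176, which also covers an exon of the transcript *Gm37084*, had 213 and 102, for a ratio of -0.48 (-0.84 to -0.13), and its interval includes 0 when uncentred. The regions at 131060234 to 131060961 and 131079841 to 131080207 had ratios of -0.11 (-0.40 to 0.18) and -0.21 (-0.53 to 0.11). The start site region had a ratio of -0.04 (-0.23 to 0.16), and the 4 shared regions upstream of it had ratios above 0.

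Just past the 3′ end of *Mapkapk2* the region at 131053179 to 131053580 had 167 fragments and 151, for a ratio of 0.44 (0.11 to 0.76). Upstream of the gene, the region at 131108687 to 131108889, 11021 bp from its start, had 48 and 53 and the highest ratio of the cluster, 0.72 (0.13 to 1.32). Between the intronic regions and those upstream lies the start site region, at -0.04 (-0.23 to 0.16). Of the shared regions upstream of the gene only that at 131108687 had an interval above 0.

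All values on the body of *Mapkapk2* as a whole are a description without a test. Of 656 protein-coding genes with 5 shared regions on the body, 7.77% had all 5 ratios below 0 and 7.62% all 5 above. Of 2901 genes with at least 5 such regions, 1.83% had a median at or below that of *Mapkapk2*. A region was counted on a body by its summit, so the start site region of *Mapkapk2*, whose summit lies 10 bp outside the gene, is not among these 5. The local background was recovered from the same peaks as the pileups, so it is not independent of them. At the 5 regions its median was 18.1 fragments in *CREBfl/fl* and 9.82 in *Foxp3creCREBfl/fl*. This is a log2 ratio of -0.22 relative to that of the shared regions with a local background. At the regions nearest to *Il10* this ratio was 0.09. With the fold over the local background in place of the pileup, the median of the body was -0.15, with 4 of 5 regions below 0, and the intervals of the regions at 131080775 and 131089586 include 0.

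Of the shared regions nearest to *Fcmr* 1 of 8 had an interval below 0, against 7.88% of all shared regions. The 8 shared regions had a median of -0.03, and 6 of them lay below 0. The region at 130879780 to 130880154, in an intron near the 3′ end, had 92 fragments and 37, for a ratio of -0.73 (-1.33 to -0.17). It is the last region before the closed stretch of *Il24*, *Il20* and *Il19*, and lies within 20 kb of *Il24* too. The region before the *Fcmr* start had a ratio of -0.09 (-0.34 to 0.16).

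**Figure D4:**
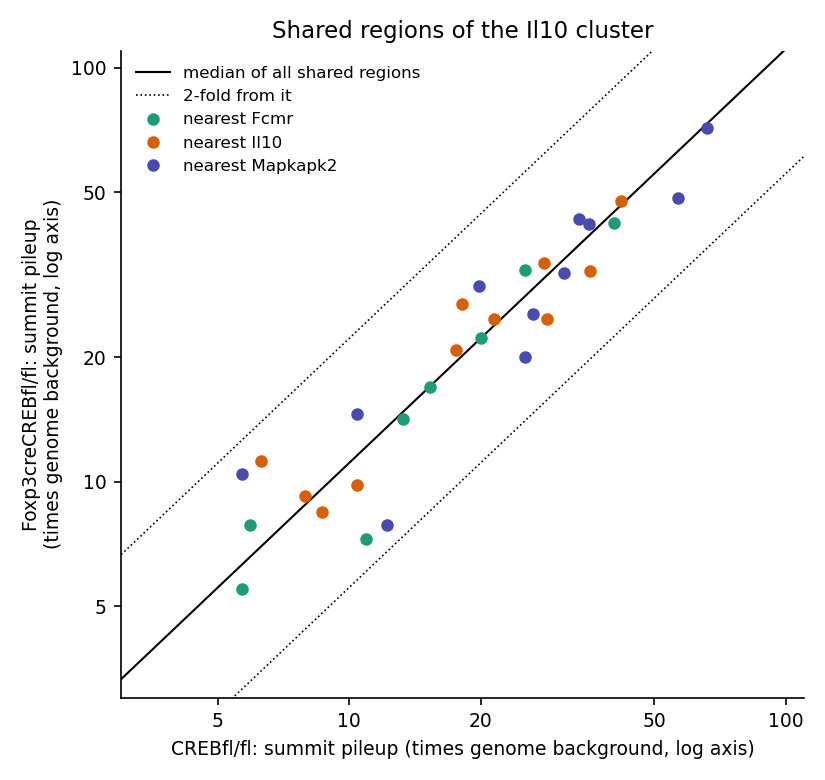
Summit pileup over the genome background of the shared regions in *Foxp3creCREBfl/fl* (vertical axis, log scale) against *CREBfl/fl* (horizontal axis, log scale), coloured by the nearest gene. All 30 regions lie within 2-fold, the dotted lines, of the median of all shared regions, the solid line.

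A single region held a CRE, and AP-1 words were found in most regions nearest to *Il10*. Words were searched on both strands within 150 bp of each summit, and shares are set beside those of all *CREBfl/fl* regions. The regions counted are the 38 joined regions that hold the 40 *CREBfl/fl* regions of the cluster. For them the summit was that of the list with the higher pileup. The shares of all regions are of *CREBfl/fl* regions before joining, at their own summits. The CRE occurred 3 times in the windows, at 131003555, 131033017 and 131102399, and only the first lies in an accessible region, so the CRE was in 1 of 38 *CREBfl/fl* regions, against 0.942% of all regions. There it lies 27 bp from the summit, and with the half-sites inside the CRE the window holds 4 half-sites. The AP-1 word was in 6 of the 11 regions nearest to *Il10*, against 9.51% of all regions, in 2 of 18 nearest to *Mapkapk2* and in 0 of 8 nearest to *Fcmr*. The region 18.4 kb downstream of *Il10* holds 3 AP-1 words.

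The half-site was in 1 of 11 regions nearest to *Il10*, 6 of 18 nearest to *Mapkapk2* and 1 of 8 nearest to *Fcmr*, against 15.9% of all regions. Over all 38 *CREBfl/fl* regions the NFAT word TGGAAA was in 16, against 24.0%, the RUNX word TGTGGT in 13, against 27.5%, and the GATA word AGATAA in 6, against 14.4%. The MAF half-site TGCTGAC was in 3, against 5.38%. The NRF1 word was in none, against 0.316%. Of the 4 regions with an interval above 0, 3 hold an AP-1 word and 1 a half-site, and of the 6 with an interval below 0, none holds an AP-1 word and 3 a half-site. Of the 20 whose interval includes 0, 4 hold an AP-1 word and 1 a half-site. These counts were made after the intervals had been seen.

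**Figure D5:**
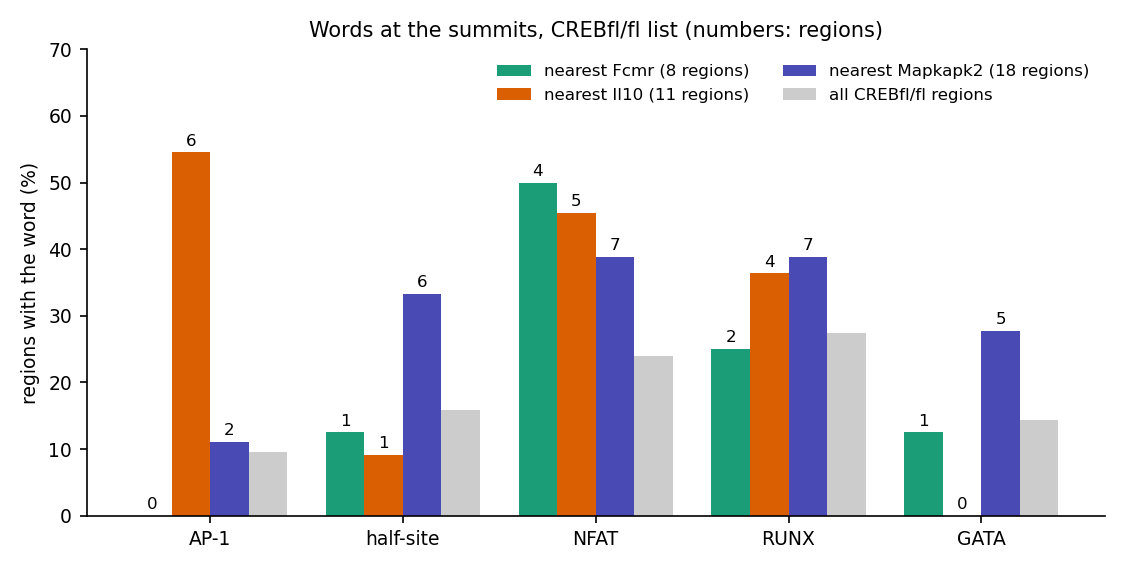
Share of the joined regions in the *CREBfl/fl* list (vertical axis, %) with each word (horizontal axis) within 150 bp of the summit, by the nearest gene. The bars for all *CREBfl/fl* regions are of regions before joining, and the number of regions stands above the bars of the genes. AP-1 words were in 6 of 11 regions nearest to *Il10*, and half-sites in 6 of 18 nearest to *Mapkapk2*.

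A stretch left out by the windows held the strongest region near *Il10*. Between the windows of *Il19* and *Il10* lay 5 shared regions and no region of 1 list only. The region at 130993476 to 130994261, 26.0 kb upstream of *Il10*, had pileups of 828 and 550, or 98.1 and 108 times background, at a ratio of -0.01 (-0.17 to 0.15). Further upstream, the region at 130987598 to 130987839 had 110 and 102, for a ratio of 0.47 (0.07 to 0.87). The other 3 had intervals that include 0.

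For comparison, the locus of the Th2 cytokines *Il4*, *Il13* and *Il5* with *Rad50* and *Kif3a* had 24 joined regions. Of these 21 were shared, with a median ratio of 0.13. None of its 21 *CREBfl/fl* regions (0% to 15.5%) lacked a counterpart, against 16.4% of all regions. Of its 26 *Foxp3creCREBfl/fl* regions 3 did (11.5%, 4.00% to 29.0%), an interval that includes the 6.61% of all regions. The difference from the *Il10* cluster was not tested. Within 5 Mb of the *Il10* cluster 101 of 622 *CREBfl/fl* regions (16.2%) lacked a counterpart, and the median ratio was 0.02. Of 608 *Foxp3creCREBfl/fl* regions there 62 lacked one (10.2%, 8.04% to 12.9%), against 6.61% of all regions. Of its 505 shared regions 60 had an interval above 0 and 39 below, against 5.47% and 7.88% of all shared regions. The rule of 2-fold and 5 counting SDs was passed by 6 of the 505, against 164 of all 82004.

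Genes that act with those of the cluster gave no region past 2-fold and 5 counting SDs. For the 9 receptor genes (*Il10ra*, *Il10rb* and others) 6 of 64 *CREBfl/fl* regions (9.38%) and 3 of 63 *Foxp3creCREBfl/fl* regions (4.76%) lacked a counterpart, and the median ratio was -0.06. These genes include *Pigr*, whose window holds regions of the cluster that lie nearest to *Fcmr*, so this set and the cluster overlap. For the 6 signalling genes 28 of 126 *CREBfl/fl* regions (22.2%) lacked a counterpart, as did 13 *Foxp3creCREBfl/fl* regions (11.3%). Over all regions these shares were 16.4% and 6.61%. *Jak1*, a kinase of the receptor, had 9 *CREBfl/fl*-only regions of 47 (19.1%, 10.4% to 32.5%), and *Socs1*, an inhibitor of it, had 6 of 13 (46.2%, 23.2% to 70.9%), against 16.4% of all regions. The 12 regulators of *Il10* in T cells had 44 of 260 *CREBfl/fl* regions (16.9%) and 14 of 240 *Foxp3creCREBfl/fl* regions (5.83%) without a counterpart. The transcription factor genes *Rora* and *Runx1* had *CREBfl/fl*-only shares of 14 of 59 (23.7%, 14.7% to 36.0%) and 13 of 49 (26.5%, 16.2% to 40.3%). Both intervals include the 16.4% of all regions. For the 10 genes of the p38 and MK2 pathway the shares were 15 of 123 (12.2%) and 3 of 108 (2.78%), with a median ratio of 0.02. Among them *Map2k6*, a kinase that activates p38, had a median of 0.53 over 12 shared regions. Of these 6 had an interval above 0 and none below, against 5.47% and 7.88% of all shared regions. *Jak1*, *Socs1*, *Rora*, *Runx1* and *Map2k6* were all picked from the listed genes after their values had been seen. The 4 family members outside the cluster, *Il22* among them, had 1 of 4 and 1 of 5.

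The cell type was checked against its markers. All 5 Treg genes (*Foxp3*, *Il2ra*, *Ctla4*, *Ikzf2* and *Nrp1*) had a region within 1 kb of a start site in both lists, with medians of 80.9 and 80.6 times background. Of 5 myeloid markers 3, of 5 CD8 and NK cell markers 3 and of 4 erythroid markers 2 had a region in both lists. The highest start regions reached 41.1 and 54.1 times background among the myeloid, 19.8 and 17.5 among the CD8 and NK cell and 66.8 and 75.3 among the erythroid markers, and *Lyz2*, *Csf1r*, *Cd8a*, *Ncr1*, *Hbb-bs* and *Hba-a1* had none.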

How the data were processed

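ATAC-seq libraries of splenic Tregs, 3 per group by the labels, were analysed as 1 peak list per group. The authors trimmed paired reads of 75 bp (Trim Galore), aligned the reads with Bowtie2, kept alignments above quality 30 with SAMtools, removed duplicates and used MACS2 for the peaks. Tool versions, and how the libraries were joined, were not stated in the sources used here. The deposited score is MACS2's integer form of its -log10 q. The deposited fold is the authors' ratio of summit pileup to background, and the authors' p-values and q-values are deposited as -log10. The summit position is the last column used.

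The authors name mm9, but positions were read as GRCm38: 57.5% and 56.9% of 54376 protein-coding start sites had a region within 1 kb, against 13.9% and 12.9% after a shift by 100 kb. The authors name calling without a local background, while 32.7% and 29.8% of regions have the genome background and the others a higher one.

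Pileups were recovered from the fold and p of each peak to within 0.002 (-log10) for 99.94% and 99.97% of peaks; 78 shared regions were left out. The lowest pileups at the genome background were 19 and 14, which limits what each list can show. Joined regions took the highest pileup. Ratios have exact conditional binomial (Clopper-Pearson) intervals and shares Wilson intervals, computed in Python 3.11.15 with scipy 1.17.1, and the scripts were tested on simulated data. With 1 list per group no test across mice was made. Regions were given to the nearest member by gene body. Also searched were ETS, kappa-B, STAT and CTCF words, in 1, 1, 0 and 2 of 38 *CREBfl/fl* regions. Named by value were regions with an interval off 0, regions of 1 list only, start site regions, the 3 strongest regions of each list and any with a CRE. The members and lists were chosen with earlier results of these data known, and the heights corresponding to group-only regions, the counts along gene bodies, the local backgrounds and the words by interval were added after the lists had been seen. In the RefSeq promoter table (GRCm38.p6) *Fcmr*, *Il20*, *Il19* and *Mapkapk2* matched, and *Il10* and *Il24* did not. The 250 bases that the table gives before its start site held no CRE, half-site or AP-1 word in any of the 4. The accessible region over the *Mapkapk2* start, only partly covered by these bases, holds 1 half-site within 150 bp of its summit. The B cell markers are not reported here.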

Additional observations from a re-analysis of the deposited data

How the results depend on the processing

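No paired analysis was possible because each group has 1 list of peaks, in which the replicates cannot be told apart, and for the same reason no replicate could be left out. Of 10 regions with an interval off 0 all kept their side with centring within bins of pileup or on regions within 5 Mb, 9 of 9 with summits within 100 bp (where the region at 131000517 drops out and leaves 3 above 0), 8 with the authors' fold over the local background and 7 without centring, and none changed sign. Without centring 7 intervals lay above 0 and 3 below, and the medians were 0.15 (cluster), 0.12 (*Fcmr*), 0.21 (*Il10*), 0.11 (*Mapkapk2*) and -0.22 (*Mapkapk2* body). With the fold over the local background the medians of *Il10* and the *Mapkapk2* body were -0.065 and -0.15. *Foxp3creCREBfl/fl*-only regions numbered 4 with a reciprocal overlap of 50%, 3 with a -log10 q of at least 10 in both lists and 2 with windows of 50 kb. *CREBfl/fl*-only regions fell from 8 to 1 when a -log10 q of at least 10 was asked of the list counted, since most are weak. Windows of 10 kb held 20 shared *CREBfl/fl* regions in place of 32, by their size. In whole regions 2 of those nearest to *Il10* hold a half-site. Assignment to every window moved the median of *Mapkapk2* from -0.036 to 0.028, and the nearest start site left the medians of all 3 genes as they were. The pileup of the weakest regions, close to the lowest that could be called, limits statements on regions of 1 list only.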
